A study of Mus musculus with 6 samples.

Results

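The 10 genes described here are Asns, Pycr1, Aldh18a1, Gpt2, Got1, Glul, Pck2, Bcat1, Cth and Cbs. All but Pck2, a phosphoenolpyruvate carboxykinase gene, encode enzymes that make or transaminate amino acids other than serine. The 10 genes were taken from the deposited expression table by their symbols, each of which matched 1 row, so that they are 10 of 21899 genes. They were measured by mRNA sequencing in C2C12, a clone of mouse myoblasts able to form myotubes, labelled as myocytes of wild-type genotype. For 3 libraries the cells were kept for 24 hours in 5 µg per L of 5-FU (5-fluorouracil), a fluorinated pyrimidine that inhibits thymidylate synthase and enters nucleic acids, at a dose described as metronomic. The other 3 libraries came from cells given phosphate-buffered saline (PBS), for which the labels state no time. The titles name C2C12 throughout, while the cell line field reads C2C13 and C2C14 for 5-FU replicates 2 and 3. The titles were followed. As the cells are 1 clonal line and nothing in the labels says that the libraries came from separate cultures, p-values measure only the spread between these 6 libraries.

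Amino acids that a cell can make for itself come from a few carbon skeletons and from nitrogen passed on by glutamate and glutamine. Asparagine synthetase moves the amide nitrogen of glutamine to aspartate, proline is made from glutamate by a short mitochondrial route, and cysteine is made from methionine sulphur by transsulphuration. Many of these genes, Asns above all, are textbook targets of ATF4, a transcription factor that pairs with C/EBP proteins on composite elements in promoters and introns when amino acids run short. In muscle, glutamine synthetase and the transaminases also handle the nitrogen set free from branched chain amino acids.

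The composite element is shown first because it is the sequence that many of these genes are known to share. Its core was searched as TGATGNAA on both strands of the RefSeq promoter windows (GRCm38.p6), which run from 250 bases before to 50 bases after each annotated start. Of 32851 windows over all genes, 3.97% held it. Windows were matched by symbol for 9 of the 10 genes, with 10 windows because Bcat1 has 2, and the core was found in those of Asns, Pycr1, Pck2 and Got1. These 4 windows are printed 5′ to 3′ on the strand of the gene, and capitals mark the core. In Pck2 and Got1 the core lies on the opposite strand, so that the capitals show its complement read backwards. The Asns window lies at chr6:7693160-7693459 (minus strand), that of Pycr1 at chr11:120643699-120643998 (minus), that of Pck2 at chr14:55540016-55540315 (plus) and that of Got1 at chr19:43524556-43524855 (minus).
Asns: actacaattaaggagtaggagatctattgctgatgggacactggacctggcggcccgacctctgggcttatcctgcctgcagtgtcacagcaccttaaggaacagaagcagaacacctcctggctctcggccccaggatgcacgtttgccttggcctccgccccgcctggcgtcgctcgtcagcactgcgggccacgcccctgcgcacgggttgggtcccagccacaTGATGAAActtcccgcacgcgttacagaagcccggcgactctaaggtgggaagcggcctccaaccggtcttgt
Pycr1: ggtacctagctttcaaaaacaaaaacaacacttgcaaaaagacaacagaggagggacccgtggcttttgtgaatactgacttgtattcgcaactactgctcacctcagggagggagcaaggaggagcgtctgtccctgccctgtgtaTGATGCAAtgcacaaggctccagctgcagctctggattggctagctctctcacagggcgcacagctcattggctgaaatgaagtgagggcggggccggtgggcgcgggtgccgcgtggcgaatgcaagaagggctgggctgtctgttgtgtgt
Pck2: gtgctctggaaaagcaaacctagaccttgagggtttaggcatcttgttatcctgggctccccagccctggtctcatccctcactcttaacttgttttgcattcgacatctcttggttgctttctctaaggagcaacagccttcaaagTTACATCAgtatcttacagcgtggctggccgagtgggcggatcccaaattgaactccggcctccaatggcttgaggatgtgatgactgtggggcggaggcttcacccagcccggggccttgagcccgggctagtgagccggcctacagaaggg
Got1: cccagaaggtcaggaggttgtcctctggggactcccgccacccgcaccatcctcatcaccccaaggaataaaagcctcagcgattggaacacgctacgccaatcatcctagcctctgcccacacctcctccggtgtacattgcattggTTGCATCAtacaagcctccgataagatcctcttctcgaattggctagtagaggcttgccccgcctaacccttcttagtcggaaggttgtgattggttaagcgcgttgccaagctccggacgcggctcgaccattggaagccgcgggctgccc
The match began 23 bases before the start in Asns, 103 in Pycr1, 103 in Pck2 and 102 in Got1. Cth had no window, and among the windows that of Glul alone had an end not found in a GENCODE transcript. No other motif was searched. A match is a description of these letters only, and their absence from the windows of Aldh18a1, Bcat1, Gpt2, Glul and Cbs says nothing of elements elsewhere in those genes.

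The only comparison of the design set 5-FU against PBS. Each library held between 19583312 and 23016735 estimated counts, and within a group log2 CPM (counts per 1000000 counts of the library) correlated across genes with r between 0.994 and 0.995. The quasi-likelihood test of edgeR called 866 of 12135 tested genes (7.14%) at a Benjamini-Hochberg adjusted p under 0.05. Of these, 470 were higher (3.87% of the tested genes) and 396 lower (3.26%) in 5-FU, and the median log2 fold change over all tested genes was 0.0012. The count fell to 249 without PBS replicate 2, to 498 and 475 without PBS replicates 1 and 3, and to 499 and 491 without 5-FU replicates 2 and 3. The share of calls that were higher was 54.3%, against 65.2% with limma on log2(TPM + 1), TPM (transcripts per 1000000) being a level per transcript length. Muscle identity was checked with 7 myoblast markers, whose summed level was 5084 to 5237 CPM in PBS and 5562 to 6221 CPM in 5-FU. The myoblast cadherin gene Cdh15 was the only one of the 7 called by edgeR (log2 fold change 0.21, adjusted p = 0.0293), and DESeq2 called 2, while 6 of the 7 had an unadjusted edgeR p under 0.05, of which Msc was lower. With 1 library left out, Cdh15 was called in 2 of 6 refits. The summed level of 8 myotube markers overlapped between the groups, at 1468 to 1750 CPM in PBS and 1425 to 2416 CPM in 5-FU, but 7 of the 8 had a positive log2 fold change, with a median of 0.22. None was called by edgeR, DESeq2 or limma-voom, while 4 had an unadjusted edgeR p under 0.05, all with higher means in 5-FU. These were Mymx (log2 fold change 0.58), Mymk (0.40), Mylpf (0.35) and Myog (0.33). In each of the 8 myotube markers 5-FU replicate 2 was the highest library, so that the means in 5-FU lean on it. Mymk alone of the 8 did not overlap between the groups, where 29.3% of all tested genes did not. Over all genes, 2893 of the 12135 tested had an unadjusted edgeR p under 0.05. The part of the myoblast and myotube markers in the results for the enzymes was not tested. Hepatocyte markers, of interest because liver is rich in Cbs, Cth and Gpt, summed to at most 0.0475 CPM in any library, with Alb and Ttr at 0.

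In 5-FU, 6 of the 9 genes that could be tested were called lower and none higher, where 3.26% of all tested genes were called lower. These were Asns, both genes of proline synthesis (Pycr1 and Aldh18a1), the mitochondrial phosphoenolpyruvate carboxykinase Pck2, the cytosolic branched chain transaminase Bcat1 and the cysteine synthesis gene Cth. Gpt2, Got1 and Glul were tested and not called, and Cbs was too low to test. Of the 9 genes tested, 8 had negative values, against 49.7% of all tested genes, and their median log2 fold change was -0.31, against 0.0012 over all genes. In 7 of the 9 all 5-FU libraries lay below all PBS libraries in CPM, as they did in 11.9% of all tested genes. The genes were chosen with earlier results of these data known, so these shares describe the list and do not test it. Among the 6, Aldh18a1 fell by 18.2% and Cth fell by 42.9%, with the others between them. When edgeR's glmTreat asked for a change beyond 1.2-fold, 1 of the 6, Asns, was still called (adjusted p = 0.0309). Over all 12135 tested genes glmTreat called 30. In bulk RNA, less mRNA per cell and fewer cells that express a gene cannot be told apart.

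**Figure D1:**
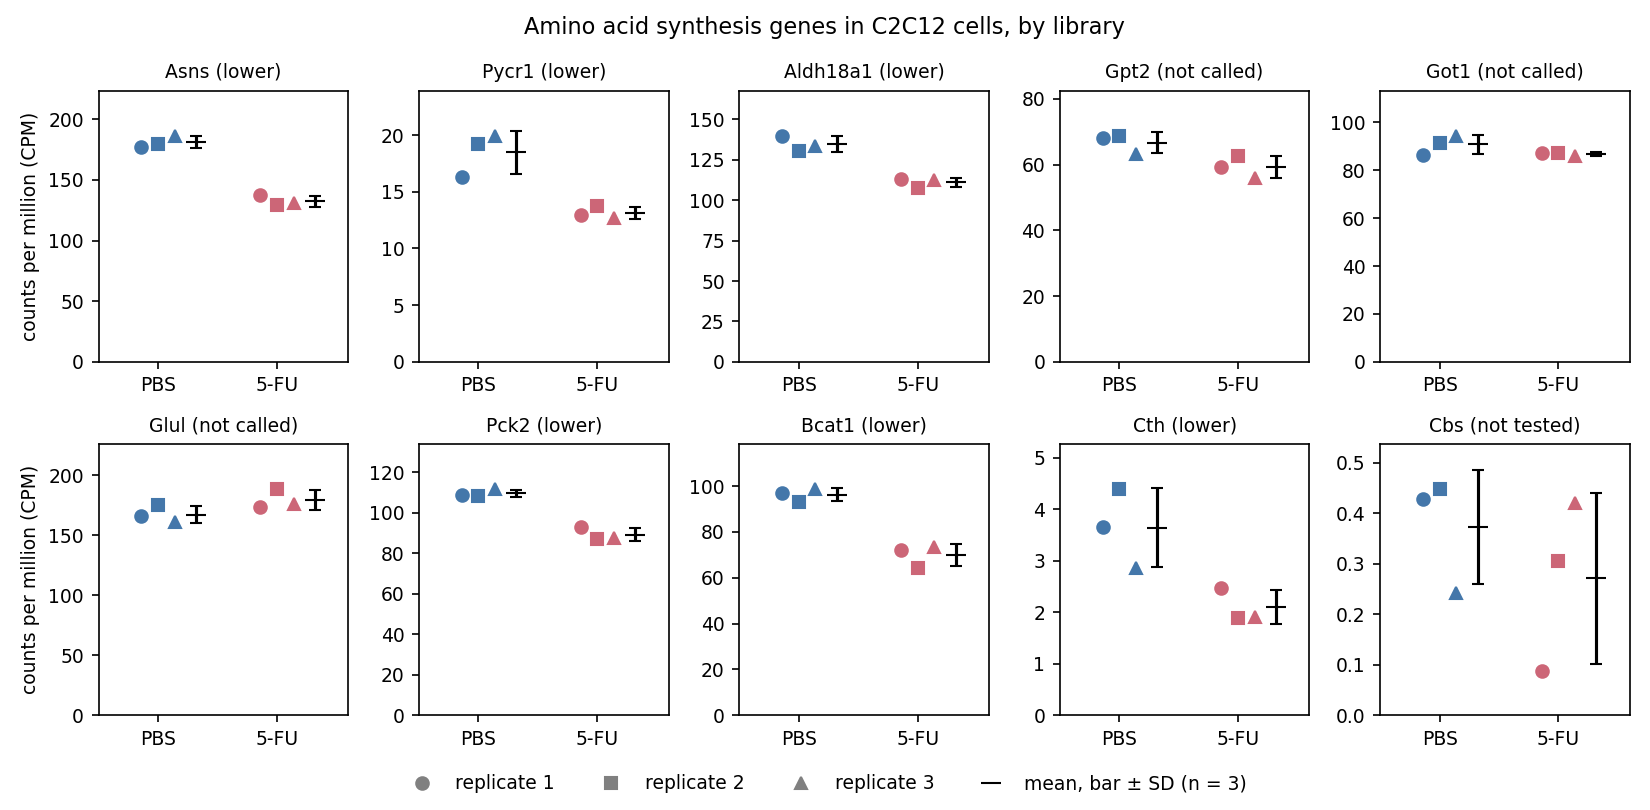
Level of each of the 10 genes in CPM (linear axis from 0), by group, with circles, squares and triangles for replicates 1, 2 and 3 and the mean ± SD (n = 3) beside them. The 5-FU points lie below all PBS points for Asns, Pycr1, Aldh18a1, Gpt2, Pck2, Bcat1 and Cth, and overlap with them for Got1, Glul and Cbs.

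Asns (ENSMUSG00000029752) encodes asparagine synthetase, which makes asparagine from aspartate with glutamine as the nitrogen donor. It stood at 177, 180 and 186 CPM in PBS replicates 1, 2 and 3, and at 138, 129 and 131 CPM in 5-FU replicates 1, 2 and 3. The groups were well apart, since the highest 5-FU library lay far below the lowest PBS library. Asns fell by 27.6% (log2 fold change -0.47, SE 0.043, edgeR adjusted p = 2.97e-04), and the 6 refits that left out 1 library all called it, with log2 fold changes between -0.49 and -0.45. Per transcript length, its level was 179 ± 1.8 TPM in PBS and 133 ± 3.0 TPM in 5-FU (mean ± SD, n = 3). Over all 6 libraries its mean TPM was the highest of the 10 genes, and 6.75% of the genes with a TPM above 0 stood above it. Glul came next by TPM (7.45% of genes above it), followed by Got1, Aldh18a1, Pck2, Bcat1, Gpt2, Pycr1, Cth and Cbs, the last with 76.6% of genes above it. In 5-FU the order of the first pair turned, with Glul at 148 ± 6.9 TPM.

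Aldh18a1 (ENSMUSG00000025007) encodes the synthase that turns glutamate into pyrroline-5-carboxylate, the shared precursor of proline and ornithine. In replicate order its level was 140, 130 and 133 CPM in PBS and 113, 108 and 112 CPM in 5-FU. All 5-FU libraries were lower, and the change was called (log2 fold change -0.29, SE 0.045, edgeR adjusted p = 0.00399). Pycr1 (ENSMUSG00000025140) encodes a mitochondrial reductase that makes proline from that precursor. It stood at 16.3, 19.2 and 19.9 CPM in PBS and at 13.0, 13.7 and 12.7 CPM in 5-FU. PBS replicate 1 was the lowest of its group and the nearest to the 5-FU libraries, and the groups did not overlap. Pycr1 fell by 29.7% (log2 fold change -0.51, SE 0.091, edgeR adjusted p = 0.00867). Leaving out PBS replicate 2 ended this call (adjusted p = 0.0533), while Aldh18a1 was called in all 6 refits.

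Bcat1 (ENSMUSG00000030268), the cytosolic enzyme that moves the amino group of leucine, isoleucine and valine to form glutamate, had a relative change close to that of Asns. Its level was 97.0, 93.1 and 98.8 CPM in PBS and 72.2, 64.3 and 73.4 CPM in 5-FU, with 5-FU replicate 2 the lowest. Bcat1 fell by 28.0% (log2 fold change -0.47, SE 0.056, edgeR adjusted p = 9.60e-04). Pck2 (ENSMUSG00000040618), which makes phosphoenolpyruvate from oxaloacetate inside mitochondria and so links amino acid carbon to the sugar and serine routes, stood at 109, 108 and 112 CPM in PBS and at 92.8, 87.1 and 87.5 CPM in 5-FU. The groups were again separate, and Pck2 fell by 19.3% (log2 fold change -0.31, SE 0.044, edgeR adjusted p = 0.00255). Each of the 6 leave-one-out refits called both genes. Each shares exon sequence in GENCODE M21 with an antisense gene (Gm26666 with Bcat1 and Gm10876 with Pck2), and since strand marking is not among the library steps in the labels, reads of these partners cannot be told apart from theirs. Pck2 was the only one of the 10 with counts that were not whole numbers, in 3 libraries (tolerance 0.005).

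Cth (ENSMUSG00000028179) encodes cystathionine gamma-lyase, which releases cysteine from cystathionine as the last step of transsulphuration. Its level was low, at 3.66, 4.39 and 2.86 CPM in PBS and 2.48, 1.89 and 1.91 CPM in 5-FU, or 234 and 135 counts per group. PBS replicate 3 lay close to 5-FU replicate 1, although the groups did not overlap. Of the 9 values that of Cth was the largest in size and had the widest error (log2 fold change -0.81, SE 0.20, 95% interval -1.25 to -0.36, edgeR adjusted p = 0.0374). The edgeR adjusted p rose to 0.0848 on leaving out PBS replicate 1, to 0.161 for PBS replicate 2, to 0.0958 for 5-FU replicate 2 and to 0.0995 for 5-FU replicate 3, so that the call held in 2 of 6 refits. Likewise, limma on log2(TPM + 1) did not call it (adjusted p = 0.0554). Cth was also the only one of the 10 among the 186 genes of the authors' deposited table. The smallest log2 ratio in size in that table was 0.585. Pycr1, next in size to Cth among the tested genes, had an edgeR log2 fold change of -0.51. In the authors' deposited table the mean of Cth was 3.96 TPM in PBS and 2.31 TPM in 5-FU, with a log2 ratio of -0.77. Its p there was 0.00336 and its FDR 0.0643, from a test that is not stated. Cbs (ENSMUSG00000024039), the synthase of the preceding step, had 9, 10 and 5 counts in the PBS libraries and 2, 6 and 9 in the 5-FU libraries. These groups overlapped, and without the filter on low counts edgeR gave a log2 fold change of -0.50 with an SE of 0.56 (adjusted p = 0.646), so that a change of Cbs was not detectable at this depth.

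The transaminases of glutamate and glutamine synthetase were not called. Gpt2 (ENSMUSG00000031700), the mitochondrial alanine transaminase, stood at 68.2, 68.8 and 63.2 CPM in PBS and at 59.4, 62.7 and 56.0 CPM in 5-FU. In CPM its 5-FU libraries all lay below the PBS libraries, but the lowest PBS and the highest 5-FU library nearly met. In TPM the groups overlapped, with 5-FU replicate 2 at 35.0 above PBS replicate 3 at 33.7. The change of Gpt2 missed the threshold (log2 fold change -0.18, 95% interval -0.31 to -0.059, edgeR adjusted p = 0.0753). Got1 (ENSMUSG00000025190), the cytosolic aspartate transaminase, had 86.5, 91.4 and 94.4 CPM in PBS and 87.1, 87.4 and 86.1 CPM in 5-FU. PBS replicate 1 lay within the narrow range of the 5-FU libraries, so that the groups overlapped (log2 fold change -0.078, 95% interval -0.18 to 0.023, edgeR adjusted p = 0.332). Glul (ENSMUSG00000026473), which encodes glutamine synthetase, had 166, 175 and 161 CPM in PBS and 173, 188 and 176 CPM in 5-FU. It was the only one of the 9 with a positive value, and the groups overlapped (log2 fold change 0.085, 95% interval -0.024 to 0.19, edgeR adjusted p = 0.325). For Gpt2, Got1 and Glul these intervals leave out a fall as large as that measured for Asns (log2 fold change -0.47). Exons of Glul overlap those of Teddm2 on the other strand in GENCODE M21, which had 1 count over the PBS and 2 over the 5-FU libraries, and those of a microRNA gene, Mir8114, not analysed here.

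**Figure D2:**
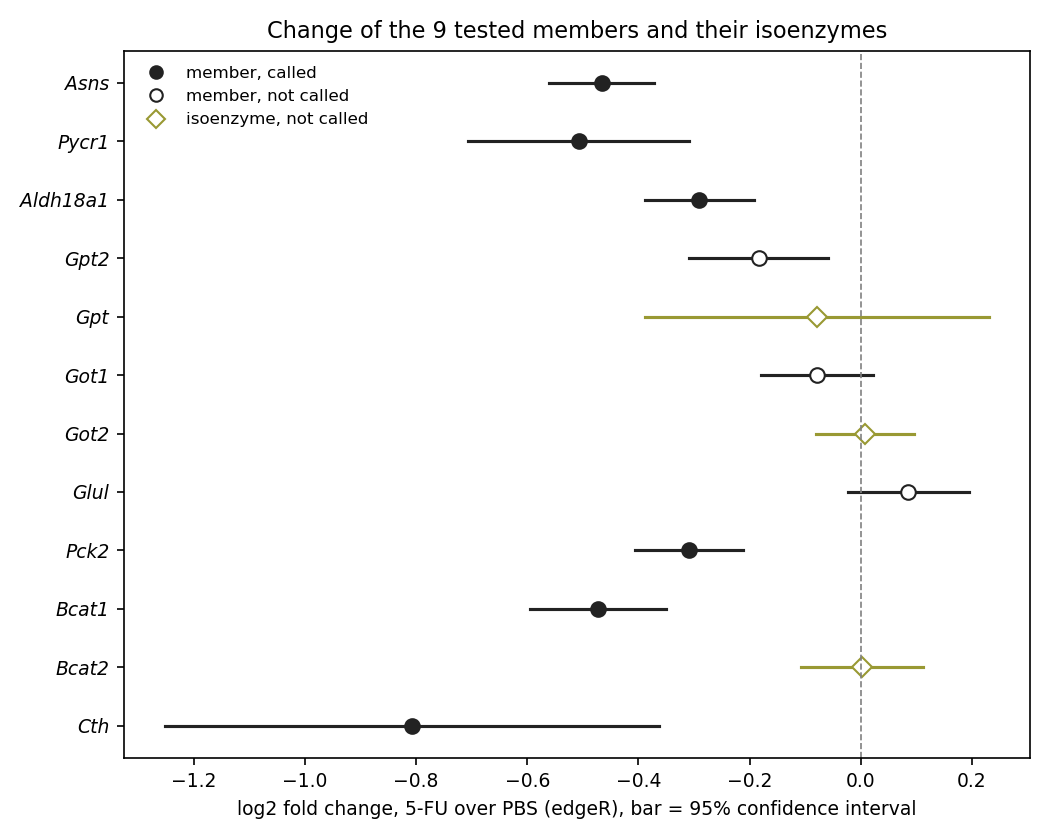
Log2 fold change of 5-FU over PBS with its 95% confidence interval for the 9 tested genes (circles) and for the sister enzymes Got2, Gpt and Bcat2 (diamonds), filled where the edgeR adjusted p was under 0.05. The intervals of Asns, Pycr1, Aldh18a1, Pck2, Bcat1, Cth and Gpt2 lie below 0, while those of Got1, Glul and the 3 sister enzymes include it.

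Bcat1, Got1, Gpt2 and Pck2 each have a sister enzyme in another compartment, and no sister gene that could be tested was called. For branched chain amino acids, the mitochondrial Bcat2 stood at 48.5 ± 0.64 CPM in PBS and 49.1 ± 1.7 CPM in 5-FU (log2 fold change 0.0026, 95% interval -0.11 to 0.11, edgeR adjusted p = 0.984). Got2, the mitochondrial aspartate transaminase, and Gpt, the cytosolic alanine transaminase, had log2 fold changes of 0.0084 and -0.079. Pck1, the cytosolic carboxykinase, was too low to test, with 1 count over the PBS and 2 over the 5-FU libraries, and Pck2 made up nearly all measured carboxykinase mRNA.

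The balance within each of the 4 pairs was compared per transcript length, as the share of the summed TPM that the gene took in each library. Bcat1 took 57.2%, 56.0% and 57.6% in PBS and 48.6%, 46.9% and 50.6% in 5-FU, so that its TPM exceeded that of Bcat2 in all 3 PBS libraries and in 1 of the 3 5-FU libraries. All 5-FU shares lay below all PBS shares, and the means differed by -8.22 percentage points (5-FU minus PBS). The two-sided exact permutation test gave p = 0.10, the smallest p that 3 against 3 libraries allow, and p = 0.40 when adjusted over the 4 pairs compared. The share of Got1 was 29.3 ± 1.2% in PBS and 28.0 ± 0.59% in 5-FU (exact permutation p = 0.20, n = 3), and that of Gpt2 was 82.6 ± 0.24% and 82.3 ± 3.6% (exact permutation p = 1, n = 3). In both of these the groups overlapped. Pck2 took between 99.9% and 100% of the carboxykinase TPM in every library (exact permutation p = 1, n = 3).

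**Figure D3:**
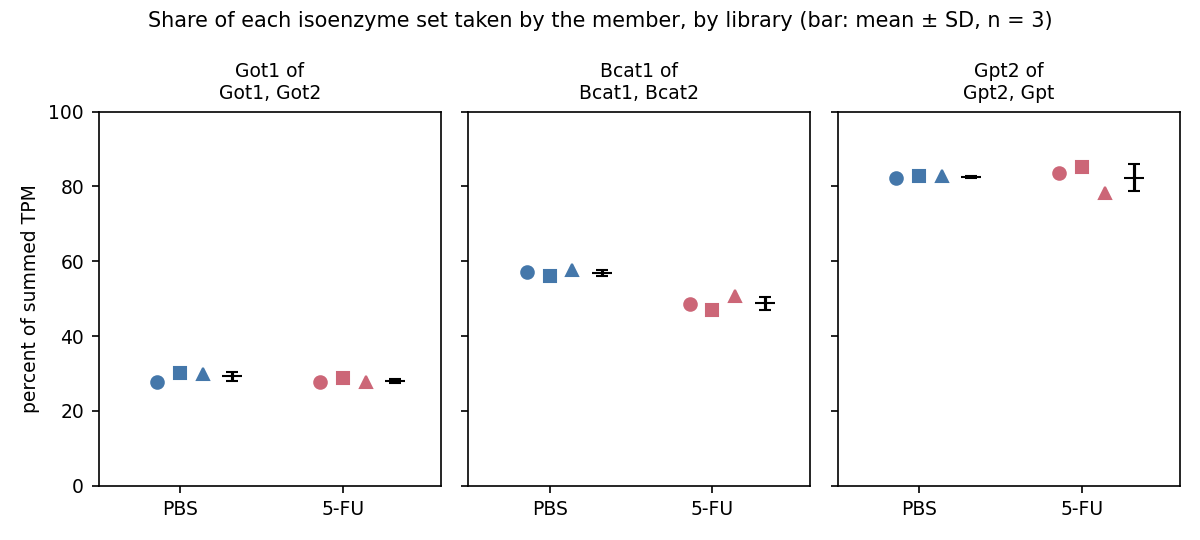
Percent of the summed TPM of each enzyme pair taken by Got1, Bcat1 and Gpt2 in each library, on an axis from 0 to 100, with circles, squares and triangles for replicates 1, 2 and 3 and the mean ± SD (n = 3) beside them. All 5-FU shares of Bcat1 lie below the PBS shares, while those of Got1 and Gpt2 overlap.

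Of 63 other genes of the same pathways 50 could be tested, of which 1 was higher and 3 were lower, with a median log2 fold change of -0.027. The 4 calls together were a share near the 7.14% called among all tested genes, and the counts by subgroup below are small parts of the same 4 calls. In 16 of the 50 the groups did not overlap, a share near the 29.3% of all tested genes. Around asparagine and aspartate 1 of 8 rose and none fell. Ass1, the synthase that joins aspartate to citrulline on the way to arginine, stood at 81.0, 80.6 and 84.9 CPM in PBS and at 123, 101 and 120 CPM in 5-FU. All 5-FU libraries were higher (log2 fold change 0.47, SE 0.069, edgeR adjusted p = 0.00301), and all 6 leave-one-out refits called Ass1. Around cysteine and methionine 1 of 14 fell, Mat2a, which makes the methyl donor S-adenosylmethionine from methionine. Its level was 267, 278 and 252 CPM in PBS and 214, 219 and 210 CPM in 5-FU, with the groups apart (log2 fold change -0.32, SE 0.046, edgeR adjusted p = 0.00251), and all 6 refits called it as well.

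In the list around proline and ornithine 2 of 9 fell, both by little. P4ha2, a hydroxylase of proline residues in collagen, went from 99.2 ± 2.5 to 88.8 ± 3.7 CPM (log2 fold change -0.17, edgeR adjusted p = 0.0457), and Odc1, which makes putrescine from ornithine, from 214 ± 4.8 to 193 ± 8.9 CPM (-0.17, edgeR adjusted p = 0.0476). Each was called only without 5-FU replicate 1 among the 6 refits, and its adjusted p reached 0.136 for P4ha2 and 0.151 for Odc1. Around glutamine and glutamate, edgeR, DESeq2 and limma-voom called 0 of 10, with 3 at an unadjusted edgeR p under 0.05. Such a p was reached by 2893 of all 12135 tested genes. The lowest p around glutamine and glutamate was that of Ctps, the glutamine-dependent CTP synthetase (log2 fold change -0.16, edgeR adjusted p = 0.0577). Among 9 other transaminases and branched chain genes the 3 tools also called 0, with 0 at an unadjusted edgeR p under 0.05 and the lowest p for Dbt, a subunit of the branched chain dehydrogenase (-0.14, edgeR adjusted p = 0.518).

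Regulators of the amino acid response were read beside these enzymes. Atf4 stood at 473, 491 and 497 CPM in PBS and at 385, 363 and 376 CPM in 5-FU (log2 fold change -0.39, SE 0.041, edgeR adjusted p = 5.35e-04). Trib3, a pseudokinase gene induced by ATF4, fell from 17.3 ± 0.84 to 9.30 ± 1.2 CPM, and the related factor Atf5 from 175 ± 6.2 to 149 ± 5.7 CPM (edgeR adjusted p = 6.56e-04 and 0.0103). The C/EBP genes Cebpb and Cebpg had log2 fold changes of -0.056 and -0.040, the stress factor Ddit3 -0.14 and Nupr1 0.011. None of these 4 was called, and in each the groups overlapped. The part of the regulators in the change of the enzymes was not tested.

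Likeness to Asns was taken as the root mean square difference, over the 6 libraries, between log2 CPM values centred on each gene's mean. Ranked were 9859 tested genes with a mean of at least 5 CPM. Their symbols had to be a capital followed only by lower-case letters, digits or hyphens. Predicted genes (Gm and Rik symbols) were left out, and this form of symbol also left out mitochondrial genes (mt-) and symbols with a further capital. The closest was Ppp1r15a, a phosphatase subunit that reverses the phosphorylation of eIF2alpha (difference 0.029). Next came the linker histone gene H1f0 (0.035), the histone H3.3 gene H3f3b (0.036), Atf4 (0.041) and the serine synthesis gene Psat1 (0.041). Among the other enzymes described here Bcat1 came closest, at place 13 (0.055), then Pck2 at 41, Pycr1 at 70 and Aldh18a1 at 105. Gpt2 lay at 800, Got1 at 1991 and Glul at 7063. Cth had a mean under 5 CPM and was not among the ranked genes. Its difference of 0.26 would have put it at 5808. The measure also grows where a gene changes by more than Asns, and Cth fell further (log2 fold change -0.81 against -0.47). This ranking is a description of 6 libraries and includes the group difference itself.

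**Figure D4:**
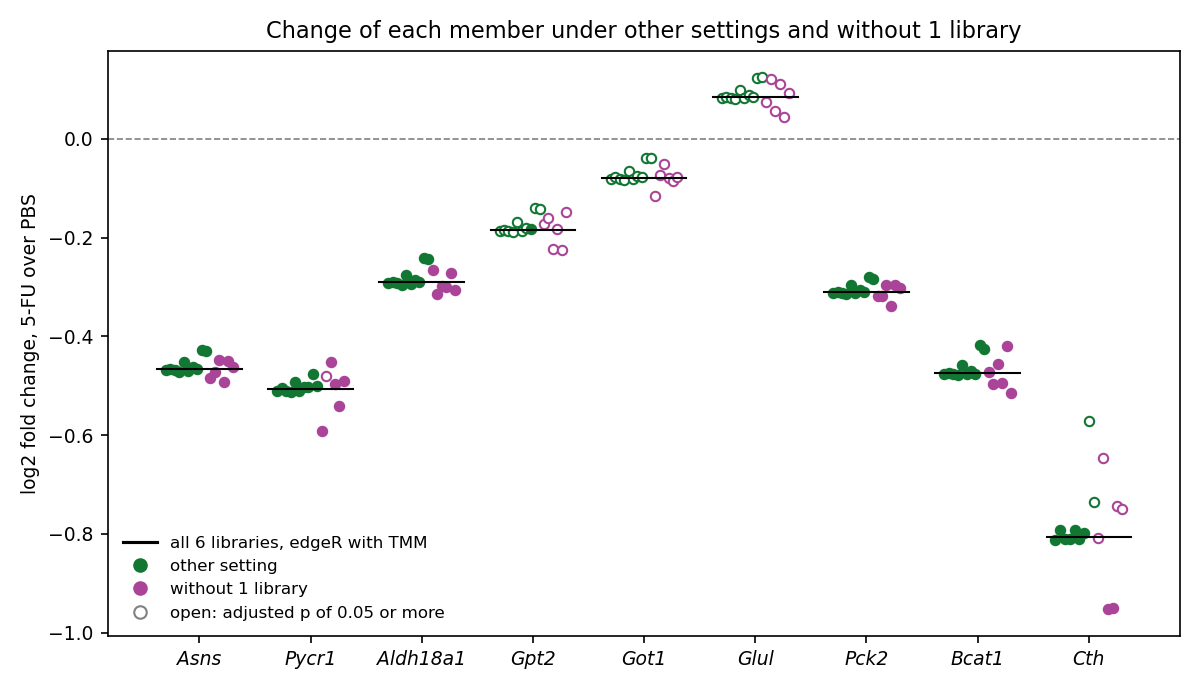
Log2 fold change of 5-FU over PBS for each tested gene (black line) and under other settings (green; glmTreat is not drawn) or without 1 library (purple), filled where the adjusted p was under 0.05. The points of Glul lie above 0 and those of the other 8 genes below it. Among the called genes, open points are drawn for Cth and, without PBS replicate 2, for Pycr1, and Gpt2 has 1 filled point, from the fit with a replicate block.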

How the data were processed

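Per the file headers, the authors deposited 2 measures of every gene in every library, an estimated count and TPM. These estimated counts carry no normalization by the authors, and 7.31% to 8.04% of a library's values are not whole (tolerance 0.005). The submitters' processing notes list StringTie 1.3.1 but not what it was used for. Aligner, counter, genome build and annotation: not given in the sources used here. Per the labels' protocols, mRNA was enriched from Trizol RNA and made into libraries with a NEBNext Ultra kit. The authors' second table lists group means in TPM, a log2 ratio, a p-value and an FDR for 186 genes, whose smallest log2 ratio in size was 0.585 and whose highest p was 0.0495.

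Counts were rounded and tested with edgeR 4.0.16 (R 4.3.3): filterByExpr (at least 10 counts, scaled to library size, in 3 libraries and 15 in total), TMM factors of 0.995 to 1.01, glmQLFit and glmQLFTest, two-sided, with Benjamini-Hochberg adjustment over 12135 genes. CPM values use library sizes without TMM factors. SEs are the size of the log2 fold change over the square root of F. Log2 CPM used a prior count of 2. Steps were tested on simulated data. The alternatives were DESeq2 1.42.0, limma 3.58.1 (voom, and log2 TPM with pseudocounts of 1 and 0.1), other scaling factors, filters and thresholds, a replicate block, and leaving out each library. The members and lists were chosen with earlier results of these data known. All 10 members were named, with every called gene of the related list, the gene of lowest p where a subgroup had none, the sister enzymes of 4 members, the listed regulators and the 5 genes most like Asns. Those in the closing observations were chosen after their values were seen. Pcx was found through RefSeq synonyms. A planned comparison of 1 more enzyme family is not reported here. For Ddit3, which is on 2 gene identifiers, the identifier with counts was used. Of the markers listed, those of adipocytes, endothelium, and astrocytes and neurons were too low to test (at most 0.420, 0.654 and 0.0434 CPM summed), and those of leukocytes summed to 3.36 to 5.56 CPM, of which only Cd68 was tested and none called (edgeR, DESeq2 and limma-voom; 0 at an unadjusted p under 0.05).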

Additional observations from a re-analysis of the deposited data

How the results depend on the processing

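The sign of each of the 9 tested genes held under every alternative run. The number called, 6, lay between 4 and 7 except with glmTreat against a fold of 1.2, which called 1; leaving out 1 library gave 4 to 6. The related list, with 4 calls, gave 2 with library size alone, with limma on log2(TPM + 1) or log2(TPM + 0.1) and at an adjusted p under 0.01, 0 with glmTreat (2 at an unadjusted p under 0.05) and 2 to 4 without 1 library. Over all genes, 30 were called with glmTreat, 494 and 491 with limma on log2 TPM with pseudocounts of 1 and 0.1, 239 at an adjusted p under 0.01, and 249 to 656 without 1 library. At a mean of at least 5 CPM Cth was not tested. The share of Gpt2 in its pair turned from -0.30 to 1.74 percentage points, and that of Pck2 from -0.025 to 0.016, without 5-FU replicate 3; with 1 library left out the shares of Bcat1, Got1, Gpt2 and Pck2 ranged from -9.16 to -7.35, -1.94 to -0.81, -1.74 to 1.74 and -0.046 to 0.016. The cause was not tested.

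Same-numbered libraries deviated together with r = -0.0016, 0.087 and 0.13. Libraries of replicates 2 and 3 correlated best with their own number, while those of replicate 1 did not. Whether the numbers mark pairs cannot be told from this, and the main fit did not use them as pairs. With the replicate number as a block 7 of the 10 genes were called, Gpt2 being the addition (adjusted p = 0.0390), 5 of the related list and 1199 of all genes. Within the block the shares of Bcat1 and Got1 gave an exact permutation p of 0.25, the smallest 3 pairs allow. Depth limits Cbs, with 24 and 17 counts per group, and Cth, with 234 and 135.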

Other observations

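Of the 8 tested genes around asparagine and aspartate 4 had positive and 4 negative values, with a median log2 fold change of -0.026. In 3 of the 8, all higher in 5-FU, the groups did not overlap, against 29.3% of all tested genes in either direction. Beside Ass1 these were Pcx and Slc25a13, which were not called and are named here after their values were seen. The pyruvate carboxylase gene Pcx, whose enzyme makes the oxaloacetate that aspartate is formed from, stood at 33.1 ± 1.8 CPM in PBS and 37.7 ± 1.0 CPM in 5-FU (n = 3; log2 fold change 0.17, edgeR adjusted p = 0.102). The mitochondrial aspartate and glutamate carrier gene Slc25a13 stood at 1.98 ± 0.32 and 2.52 ± 0.20 CPM (n = 3; 0.34, edgeR adjusted p = 0.306), while its sister gene Slc25a12, at 66.4 ± 4.2 and 64.3 ± 3.7 CPM, overlapped between the groups. Arg1, which encodes the arginase that makes ornithine, had 0 counts in PBS and 6 in 5-FU and was too low to test. Aadat, a transaminase gene also too low to test, went the other way, with 7 counts in PBS and 3 in 5-FU.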
